A study of Mus musculus with 6 samples.

Results

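The semaphorin, plexin, Slit and netrin guidance genes are a set of 42 ligands and receptors that steer growing axons and migrating neurons. They were taken by symbol from the 47062 genes of the deposited table, and each of the 42 symbols matched 1 row. The set holds 23 ligands (semaphorins, Slits and netrins) and 19 receptors (plexins, neuropilins, Robo receptors, Dcc and Unc5 receptors). The libraries came from RNA of the whole striatum, subventricular zone included, of mice at postnatal day 0 on a mixed background of the C57BL/6J, 129S6 and CD1 strains. The 3 control libraries were from Sp9Flox/Flox littermates and the 3 mutant libraries from Drd2-Cre;Sp9Flox/Flox animals, so floxed alleles of Sp9, a zinc finger transcription factor gene, were shared by all 6. In Drd2-Cre animals the recombinase follows the dopamine D2 receptor gene, a marker of the indirect pathway (striatopallidal) projection neurons whose development the study examined. No group carried Drd2-Cre without the floxed alleles, so deletion and transgene cannot be told apart. The labels do not say how many animals gave each library, and p-values therefore measure only the spread between these libraries. Values written with ± are means and SDs over the 3 libraries of a group unless SE is stated.

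Semaphorins are recognised by plexins. The secreted class 3 semaphorins mostly need a neuropilin as the binding partner of a class A plexin, while Sema3e can bind Plxnd1 directly. Slits are secreted repellents that act through Robo receptors, and netrins attract through Dcc or repel through Unc5 receptors. In the forebrain these families guide striatal, thalamic and cortical axons and the neurons that migrate out of the ganglionic eminences and the subventricular zone.

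Promoter sequence is shown for 4 of the 5 receptors with the smallest p-values in the comparison of mutant with control, none of which passed an adjusted p there, so that their starts can be read side by side; the fifth, Plxna4, is named only. The sequences are the bases before the RefSeq start on GRCm38.p6, up to 250, ended where an annotated exon of a protein-coding transcript begins. The windows are chr1:194619579-194619824 on the plus strand (Plxna2), chr10:94944846-94945095 on the minus strand (Plxnc1), chr13:54949161-54949410 on the plus strand (Unc5a) and chr9:109095186-109095388 on the plus strand (Plxnb1). That of Plxna2 lies inside the annotated gene, which begins at 194618218, whereas the others lie before theirs. The sequences are written 5' to 3', and capitals mark the GC box GGGCGG on either strand (CCGCCC on the other), the element that Sp family zinc finger proteins are known to bind.
Plxna2: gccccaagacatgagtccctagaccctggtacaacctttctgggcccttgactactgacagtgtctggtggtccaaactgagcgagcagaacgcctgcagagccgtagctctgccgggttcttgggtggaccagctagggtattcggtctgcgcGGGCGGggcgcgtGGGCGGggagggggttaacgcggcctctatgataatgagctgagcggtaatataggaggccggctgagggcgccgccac
Plxnc1: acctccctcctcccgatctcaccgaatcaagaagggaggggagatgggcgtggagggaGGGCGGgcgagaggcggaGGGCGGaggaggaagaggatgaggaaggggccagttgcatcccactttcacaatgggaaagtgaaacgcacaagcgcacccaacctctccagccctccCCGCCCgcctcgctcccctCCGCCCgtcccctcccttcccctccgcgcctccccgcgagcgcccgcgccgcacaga
Unc5a: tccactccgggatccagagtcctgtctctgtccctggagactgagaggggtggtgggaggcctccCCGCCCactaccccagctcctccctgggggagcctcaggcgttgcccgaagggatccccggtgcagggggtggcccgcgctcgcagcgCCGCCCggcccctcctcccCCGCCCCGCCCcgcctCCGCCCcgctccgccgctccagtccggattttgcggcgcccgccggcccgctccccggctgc
Plxnb1: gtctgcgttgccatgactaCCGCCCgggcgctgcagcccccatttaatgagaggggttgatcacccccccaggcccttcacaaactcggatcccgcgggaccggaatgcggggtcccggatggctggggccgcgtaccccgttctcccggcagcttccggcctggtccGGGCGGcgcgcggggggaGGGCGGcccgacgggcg

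The printed stretch holds 2 GC boxes for Plxna2, 4 for Plxnc1, 5 for Unc5a, of which a pair overlaps by 1 base, and 3 for Plxnb1. Each of the 4 stretches thus holds the box. Of the 42 members, 34 had a promoter in the RefSeq table, with 47 entries, and 32 of those entries (68.1%) held a GC box within 250 bases before the start. Over all 32851 entries, genes of every kind, the share was 32.7%. Counted by gene rather than by entry, 26 of those 34 members (76.5%) held the box, and no share by gene is given for all genes. A match is a description of letters and not a measured site.

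The libraries held 16237046 to 19457776 fragments in genes, as estimated from the table. Sp9 had 20.1, 19.02 and 17.3 FPKM (fragments scaled to transcript length and library size) in control replicates 1 to 3 and 8.37, 7.93 and 9.67 in mutant replicates 1 to 3, so the groups did not overlap. All 12 fixed markers of striatal projection neurons were detected, and their summed level was 1869.7 to 1963 FPKM in the controls and 1713 to 1829 in the mutants. Among 7 fixed indirect pathway genes, an unadjusted p under 0.05 was reached by 6, all lower in the mutants, against 2.99% of all genes tested. The other was Drd2, with 45.0 ± 3.25 FPKM in the controls and 44.4 ± 1.97 in the mutants. The list summed to 215 to 240.3 and 82.4 to 109.9. Of 6 fixed genes of medial eminence interneurons, all 6 had estimates above 0. An unadjusted p under 0.05 was reached by 2 of them, both higher, against 2.65% of all genes tested. That list summed to 316 to 431 and 407 to 492. No gene of these 3 lists was at 0 in every library. Control replicate 3 was the only library with Y-linked transcripts at more than trace level (Ddx3y 16.7 FPKM, against at most 0.0335 elsewhere), and Plxna3 and Plxnb3 lie on the X chromosome.

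No member passed an adjusted p of 0.05 over all 16666 genes tested on FPKM with limma, a linear model that shares the estimate of spread between genes. The background at that threshold was 0.06% of genes. Of the 42 members, 40 reached the mean of 0.5 FPKM needed for the test, all 23 ligands and 17 receptors. At an unadjusted p under 0.05 there were 5 of 40, against a background of 5.65%, with 4 higher and 1 lower (backgrounds 2.65% and 2.99%). All 5 were receptors: Plxna4, Plxna2, Plxnc1 and Unc5a were higher in the mutants and Plxnb1 was lower. Dropping single libraries gave 2 to 6 members, with 3 without control replicate 2 or mutant replicate 2, and 2 (Plxna4 and Plxna2) without control replicate 3 or mutant replicate 3. None met the rule by which the submitters called genes, a 2-fold change at p up to 0.05 (background 0.342%).

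Control and mutant libraries did not overlap in 6 of the 40 members, against a background of 11.4% of all genes. Those were the same 5 receptors and Sema4c, 5 higher and 1 lower (backgrounds 5.33% and 6.05%). The count of 6 became 14 without control replicate 1 and 10 without mutant replicate 2 or 3, where the share of all genes also rose, to 22.9%, 19.8% and 22.5%. Without control replicate 2 it was 9 of 40, against 24.9% of all genes. The median log2 fold change was 0.02 over the ligands and 0.14 over the receptors, and -0.00016 over all genes tested. With 1 library left out the receptor median was 0.04 to 0.17, with 0.038 without mutant replicate 3, 0.051 without mutant replicate 1 and 0.059 without control replicate 3. It was 0.04 on scaled counts, the table's second unit, in which Plxnb3 and Robo3 also entered. The fold changes are of FPKM + 0.5 and understate those of low genes. In bulk tissue, fewer cells of a type and less RNA per cell cannot be told apart.

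On scaled counts, 7 of the 42 members had an unadjusted p under 0.05 (background 6.42%), and 5 did not overlap between groups (background 12%). The 7 were Plxna4, Plxna2, Plxnc1, Dcc, Nrp2 and Sema4c, which were higher, and Plxnb1, which was lower. Unc5a, called at that level on FPKM, was thus not among them.

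**Figure D1:**
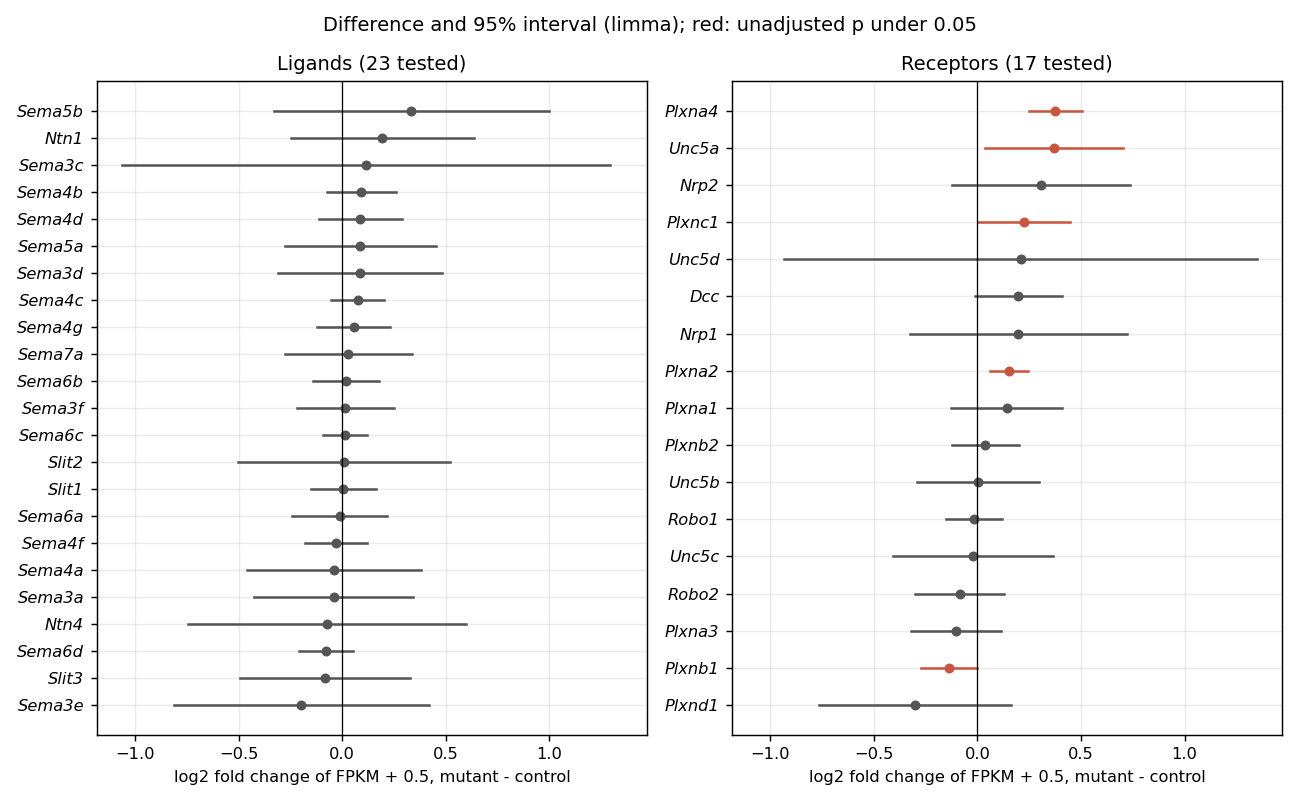
Log2 fold change of FPKM + 0.5, mutant minus control, for the 40 members tested, with limma's 95% interval (bars); red marks an unadjusted p under 0.05. Ligand estimates lie between -0.20 and 0.33 and receptor estimates between -0.30 and 0.38, and the interval of Plxna4 runs from 0.25 to 0.51.

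Of the 23 ligands, 19 had an absolute log2 fold change under 0.1 (82.6%, against 56.5% of all genes tested) and none had an unadjusted p under 0.05. On scaled counts the contrast was smaller, with 15 of 23 (65.2%, against 58.6%), and 1 ligand, Sema4c, had an unadjusted p under 0.05. Sema3f, a repellent that acts through Nrp2, had 62.9, 54.3 and 64.9 FPKM in the controls and 67.7, 59.3 and 57.0 in the mutants. Sema6c, a transmembrane semaphorin, had 54.4, 55.5 and 57.8 in the controls and 54.8, 58.6 and 56.1 in the mutants. Control and mutant libraries intermixed for both genes, and the 95% intervals of their log2 fold changes were -0.22 to 0.25 and -0.09 to 0.12.

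Sema4c was the ligand whose groups did not overlap, with 19.7, 19.3 and 19.6 FPKM in the controls and 19.96, 20 and 22.0 in the mutants. The step between the groups was small (log2 fold change 0.07 ± 0.05 SE, unadjusted p = 0.206, limma), and without mutant replicate 3 it was 0.03. An opposite-strand gene (D430040D24Rik) shares 7.27% of its exonic bases. The other class 4 semaphorins, membrane proteins, overlapped between groups: Sema4g had 40.1 ± 3.32 and 41.6 ± 1.603 FPKM in controls and mutants, Sema4a 25.9 ± 4.48 and 25.2 ± 4.39, Sema4b 7.51 ± 0.404 and 8.04 ± 0.306, and Sema4f 9.25 ± 0.364 and 9.05 ± 0.363. The class summed to 108 ± 8.18 and 111 ± 5.48. The class 6 semaphorins, transmembrane ligands of class A plexins, summed to 111 ± 0.391 and 111 ± 4.08, with Sema6b at 28.4 ± 0.552 and 28.8 ± 2.23, Sema6d at 19.1 ± 1.03 and 18.00 ± 0.3003 and Sema6a at 7.91 ± 0.855 and 7.81 ± 0.282.

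Of the other secreted class 3 semaphorins, Sema3a, the repellent that signals through Nrp1 and class A plexins, had 9.21 ± 1.46 and 8.93 ± 1.36 FPKM (95% interval of the log2 fold change -0.43 to 0.34). Sema3d ranged from 2.62 to 3.96 over the 6 libraries. Slit1 was the main Slit, with 14.4 ± 0.726 and 14.4 ± 0.794 (interval -0.15 to 0.16), while Slit2 had 1.91 ± 0.4398 and 1.93 ± 0.484 and Slit3 0.690 ± 0.149 and 0.619 ± 0.0830. Slit2 was the member on which the table's units differed most. Its log2 fold change was 0.01 on FPKM and -0.33 on scaled counts, where it rested on 125 to 237 fragments, and it passed on neither.

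Ntn1, the main netrin, had 50.5, 33.0 and 38.3 FPKM in the controls and 51.6, 39.4 and 47.2 in the mutants. The libraries were spread within each group, and the 95% interval of the log2 fold change was -0.25 to 0.64. Sema5b, a transmembrane semaphorin, was also uneven, with 20.8, 9.65 and 16.6 in the controls and 19.6, 18.6 and 18.7 in the mutants. Control replicate 2 was the lowest library for both. Dlx1 and Dlx2, transcription factor genes of subventricular progenitors and their progeny, were lowest in the same library (41.9 and 11.5 FPKM) and reached 81.3 and 21.2 in control replicate 1. The 6 progenitor markers, none at 0 in every library and none with an unadjusted p under 0.05, summed to 76.3 to 129 FPKM in the controls and 82.8 to 134 in the mutants. The part of progenitor content in the spread of Ntn1 and Sema5b was not tested.

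Among the receptors, Plxna4 (ENSMUSG00000029765; GRCm38 chromosome 6, 32144268 to 32588192, minus strand) encodes a class A plexin that serves with neuropilins as a receptor for Sema3a and also binds class 6 semaphorins. It had 19.8, 19.8 and 18.6 FPKM in control replicates 1 to 3 and 26.2, 25.9 and 24.0 in mutant replicates 1 to 3. Every mutant library lay above every control. The means were 19.4 ± 0.678 and 25.4 ± 1.15, and the fitted difference was 1.3-fold.

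The log2 fold change of Plxna4 was 0.38 ± 0.05 (SE; 95% interval 0.25 to 0.51). Its unadjusted p was 0.000463, rank 29 of 16666 genes, and its adjusted p 0.259 with limma. On scaled counts it was past the threshold, with a log2 fold change of 0.39 and an adjusted p of 0.0349 with limma. On that scale the background of adjusted calls was 0.143%, and Plxna4 was the 1 member of the 42 called. It rested on 4082 to 6720 fragments a library. Over the 15 alternatives its log2 fold change ran from 0.35 to 0.41 and its adjusted p from 0.0349 to 0.833, highest without mutant replicate 1. The antisense gene Plxna4os3 shares 110 of its exonic bases (0.78%), and the use of strand is not given in the sources used here. Of the 15 fixed marker lists, 4 had sums that did not overlap between the groups. Of all single genes tested, 11.4% did not overlap, and no such share was computed for sums. The indirect pathway and projection neuron sums, given above, were lower in every mutant library. Both hold Penk, which was lower in the mutants (log2 fold change -1.73, unadjusted p = 0.0113, limma). Both also hold Drd2, whose libraries overlapped between groups (log2 fold change -0.02). The sum of 5 meningeal fibroblast genes, of which 2 had a mean under 0.5 FPKM, was 2.81 to 3.35 FPKM in the controls and 3.78 to 4.63 in the mutants. On FPKM none of the 3 tested had an unadjusted p under 0.05. On scaled counts 1 of 3 did (background 6.42%), Col3a1, which was higher (log2 fold change 0.73, adjusted p = 0.464, limma). It rested on 33 to 82 fragments a library. Groups did not overlap on that scale for 2 of the 3 (background 12%). The sum of 3 choroid plexus genes was 0.321 to 0.985 and 1.22 to 1.76, with 1 of them at 0 in every library. The 1 tested on FPKM, Ttr, was higher at an unadjusted p under 0.05, on only 2 to 27 fragments a library. The part of these cell types in the Plxna4 difference was not tested.

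**Figure D2:**
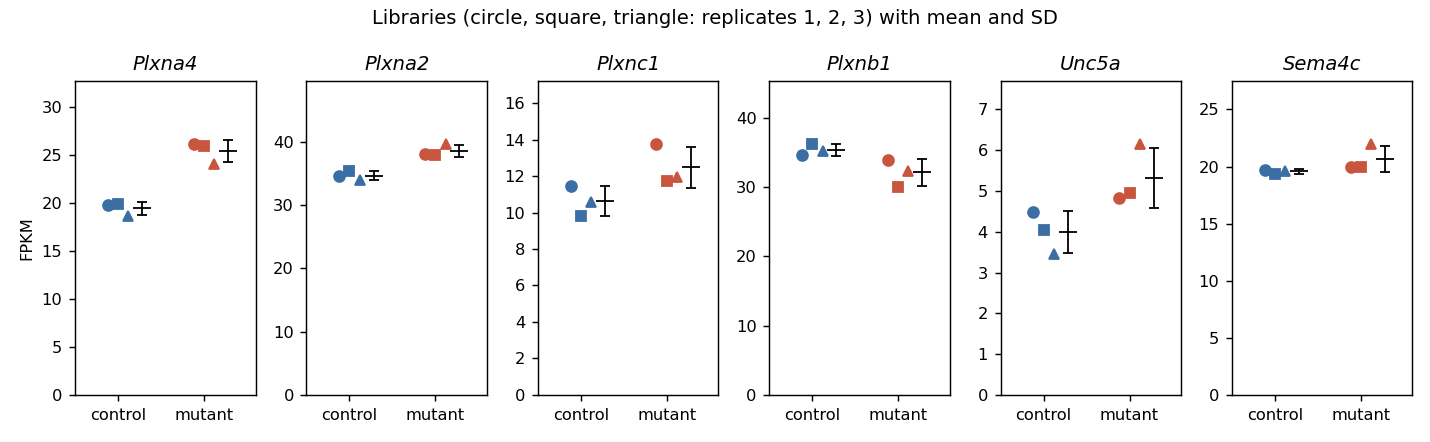
FPKM in each library of the 6 members whose control and mutant libraries do not overlap, with the mean and SD of each group (black). Plxna4 goes from at most 19.8 in the controls to at least 24.0 in the mutants, while in Sema4c the highest control and lowest mutant are close.

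Plxna2 (ENSMUSG00000026640; chromosome 1, 194618218 to 194816869, plus strand), a related class A plexin that binds class 6 semaphorins, had 34.6, 35.3 and 34.0 FPKM in the controls and 38.1, 38.0 and 39.7 in the mutants. The difference was small but the libraries of each group were close together. The log2 fold change was 0.15 ± 0.04 (SE), with an unadjusted p of 0.00721 (adjusted p = 0.707, limma). Its unadjusted p stayed under 0.05 in all 15 alternatives, as did that of Plxna4. The other class A plexins did not separate the groups. Plxna1 had 22.4, 22.5 and 19.8 FPKM in the controls and 27.4, 23.3 and 21.1 in the mutants, and an antisense gene (Gm26811) shares 10.7% of its exonic bases. Plxna3 had 86.1, 75.5 and 92.0 in the controls and 83.9, 73.9 and 77.5 in the mutants.

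The summed level of the class A plexins was 160.2 ± 6.10 FPKM in the controls and 166 ± 8.01 in the mutants, with groups that overlap. The shares of single genes within that sum were then compared. Plxna4 was 12.2%, 12.9% and 11.3% of the sum in control replicates 1 to 3 and 14.9%, 16.1% and 14.8% in the mutants. Plxna3, the most abundant of the class, was 52.8%, 49.3% and 55.9% in the controls and 47.8%, 45.9% and 47.7% in the mutants. Neither share overlapped between groups, and for each a two-sided exact permutation test gave p = 0.1, the smallest that 3 against 3 libraries allow, in 4 shares compared. These shares add to the whole, so they are not independent of each other.

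Among the other plexins, Plxnc1 (chromosome 10, 94790866 to 94944835, minus strand), the receptor for Sema7a, had 11.5, 9.81 and 10.6 FPKM in the controls and 13.8, 11.7 and 11.9 in the mutants. Its lowest mutant lay just above its highest control, with a log2 fold change of 0.22 ± 0.09 (SE; unadjusted p = 0.0495, adjusted p = 0.858, limma). Sema7a itself had 24.8 ± 3.66 and 25.2 ± 2.54. Plxnb1 (chromosome 9, 109095389 to 109119917, plus strand), a receptor for Sema4d, had 34.5, 36.2 and 35.2 in the controls and 33.9, 30.1 and 32.4 in the mutants. Every mutant library was below every control (log2 fold change -0.14 ± 0.05 SE, unadjusted p = 0.0469, adjusted p = 0.858, limma). Sema4d had 5.97 ± 0.1602 and 6.39 ± 0.547. The unadjusted p of Plxnc1 stayed under 0.05 in 9 of the 15 alternatives and that of Plxnb1 in 6. An antisense gene (Gm7628) shares 2.68% of the exonic bases of Plxnb1. Plxnb2, another class B plexin, had 37.7 ± 3.04 and 38.6 ± 0.772 FPKM.

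Plxnd1 (chromosome 6, 115954811 to 115995005, minus strand) is the receptor of Sema3e and is known for its enrichment in direct pathway neurons of the striatum. It had 56.3, 88.6 and 79.2 FPKM in the controls and 59.2, 67.3 and 52.7 in the mutants. Control replicate 1 lay among the mutants. The log2 fold change was -0.30 with a 95% interval of -0.76 to 0.16 (unadjusted p = 0.159, limma). Sema3e had 2.09, 3.29 and 2.45 FPKM in the controls and 2.00, 3.12 and 1.62 in the mutants. In each group replicate 2 was the highest library for Plxnd1, Sema3e and Robo2 alike. None of the 6 fixed direct pathway genes was at 0 in every library. Drd1, Pdyn and Sfxn1 were higher in the mutants (log2 fold changes 0.73, 0.50 and 0.44) and Isl1 was lower (-0.23). Each of these had an unadjusted p under 0.05 with limma (backgrounds 2.65% and 2.99%), whereas Tac1 and Ebf1 did not (-0.02 and -0.04). The 6 summed to 432 to 462 FPKM in the controls and 440.0 to 490.2 in the mutants. Tac1 was the most abundant of them (215 to 277 FPKM), so the sum can hide changes in the others. The part of direct pathway content in the Plxnd1 values was not tested.

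The neuropilins were low. Nrp1, the binding partner for Sema3a, had 2.65 ± 0.652 FPKM in the controls and 3.11 ± 0.729 in the mutants, and Nrp2, which prefers Sema3c and Sema3f, had 0.808 ± 0.0969 and 1.13 ± 0.266. Nrp2 had an unadjusted p of 0.13 on FPKM and of 0.0405 on scaled counts (limma), and its libraries overlapped between groups on both. Summed, the neuropilins had 3.46 ± 0.746 FPKM in the controls beside 160.2 for the class A plexins.

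Robo2 was the most abundant member, with 102, 126 and 117 FPKM in the controls and 108, 114 and 102 in the mutants. Robo1 had 42.6, 44.2 and 45.7 in the controls and 46.5, 42.6 and 41.9 in the mutants. Neither Slit receptor separated the groups, and the 95% intervals of their log2 fold changes were -0.30 to 0.13 and -0.15 to 0.12.

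Of the netrin receptors, Unc5a (ENSMUSG00000025876; chromosome 13, 54949411 to 55006018, plus strand) had 4.49, 4.05 and 3.46 FPKM in the controls and 4.83, 4.96 and 6.16 in the mutants. Its groups did not overlap, and its log2 fold change was 0.37 ± 0.13 (SE; unadjusted p = 0.0352, adjusted p = 0.858, limma). The scaled counts gave 0.26, with groups that overlap and an unadjusted p of 0.0698. Dcc, the attractive receptor, had 10.4, 9.12 and 8.84 FPKM in the controls and 11.2, 10.1 and 11.4 in the mutants, and only control replicate 1 lay above the lowest mutant. Its unadjusted p was 0.0607 on FPKM and 0.0249 on scaled counts (limma). Unc5b and Unc5c were near 1 FPKM in every library, from 1.26 to 1.51 and from 0.774 to 1.20.

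**Figure D3:**
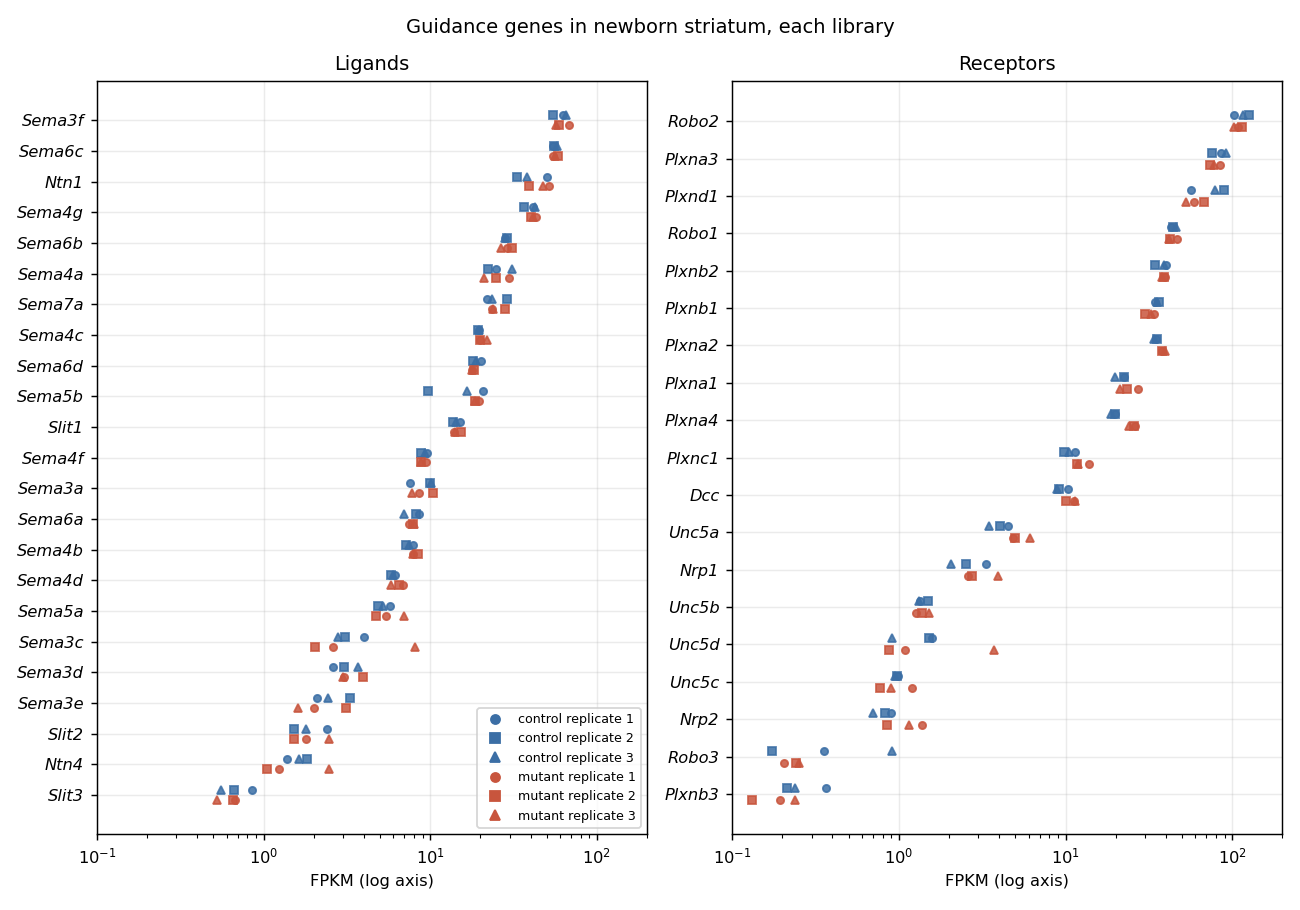
FPKM of the 23 ligands and 19 receptors in each of the 6 libraries on a log axis, ordered by the mean of the controls. Robo2 stands highest and Plxnb3 lowest, and within most genes the control (blue) and mutant (red) libraries intermix.

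In the controls the levels per transcript length ran from 115 ± 11.8 FPKM for Robo2 to 0.272 ± 0.0816 for Plxnb3. After Robo2 came Plxna3 (84.5 ± 8.36), Plxnd1 (74.7 ± 16.6), Sema3f (60.7 ± 5.65), Sema6c (55.9 ± 1.74), Robo1 (44.2 ± 1.52) and Ntn1 (40.6 ± 8.96). Neighbours in this order overlapped in 32 of 41 pairs, so Plxna3 and Plxnd1, for example, are not ordered beyond their spread, whereas Robo2 lay above Plxna3 in every control. Ligands and receptors summed to 403 ± 21.9 and 499 ± 21.6 FPKM in the controls and to 417 ± 10.1 and 486 ± 15.0 in the mutants. Plxnb3, a plexin of the oligodendrocyte lineage, and Robo3, known for commissural axons, lay under the filter. Plxnb3 had 0.132 to 0.365 FPKM and Robo3 0.173 to 0.905, on 15 to 31 and 14 to 28 fragments.

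Several low members were highest in mutant replicate 3. Sema3c, a class 3 semaphorin, had 4.01, 3.09 and 2.78 FPKM in the controls and 2.62, 2.02 and 8.08 in the mutants. Unc5d, a receptor known from upper layer cortical neurons, had 1.57, 1.52 and 0.916 in the controls and 1.09, 0.868 and 3.70 in the mutants. Ntn4 had 2.46 in mutant replicate 3 against at most 1.83 elsewhere, and Sema5a 6.92 against at most 5.76. These genes, like Ntn1 and Sema5b beside Dlx1 and Dlx2, were picked after their values were seen, and none passed the test. Mutant replicate 3 was the highest library for 11 of the 40 members, and 17.3% of all genes tested were highest there. For mutant replicate 1 the values were 10 of the 40 and 14.4%, so such an excess was not particular to mutant replicate 3.

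The cortical neuron gene Tbr1 had 17.7 FPKM in mutant replicate 3 against at most 8.58 in the other 5 libraries. Of the 6 cortical markers, none at 0 in every library, 5 were tested. On FPKM none had an unadjusted p under 0.05, and on scaled counts 1 did, Slc17a7 (log2 fold change 1.58, adjusted p = 0.579, limma). The 6 summed to 7.09 to 21.9 FPKM in the controls and to 33.4, 8.15 and 53.8 in mutant replicates 1 to 3. The part of cortical tissue in the values of these guidance genes was not tested.

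**Figure D4:**
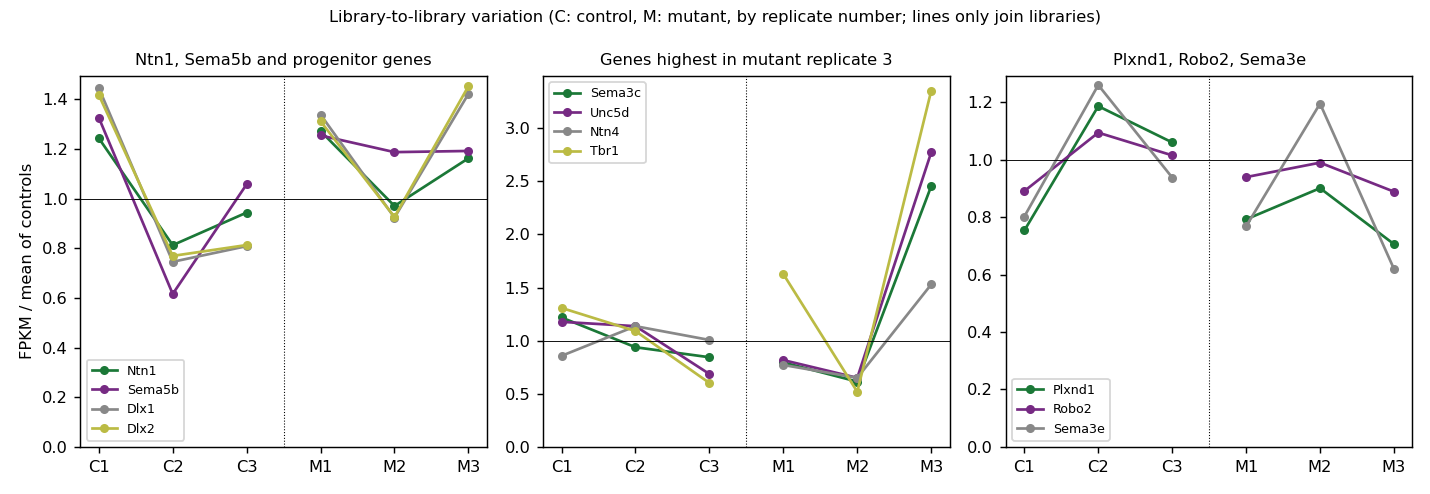
FPKM of each gene divided by its mean over the 3 controls, by library (C, control; M, mutant), for guidance genes with uneven libraries and marker genes beside them; lines only join points. Ntn1, Dlx1 and Dlx2 are lower in C2, C3 and M2 than in the other libraries, Sema3c, Unc5d and Tbr1 peak in M3 (Unc5d at 3.70 FPKM), and Plxnd1 and Robo2 are highest in replicate 2 of each group.

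Beyond the set, 3 lists of related genes were examined with the same fit, and none of their members passed an adjusted p of 0.05 on FPKM. Their counts at an unadjusted p under 0.05 are to be read against the backgrounds of 2.65% higher and 2.99% lower. Of 12 other ligands and binding partners, 9 were tested and 1 was lower at an unadjusted p under 0.05. It was Flrt3, a membrane protein that binds Unc5 receptors and Robo1, with 35.7, 31.8 and 34.1 FPKM in the controls and 27.7, 23.3 and 26.5 in the mutants. Every mutant library was below every control (log2 fold change -0.39 ± 0.08 SE, unadjusted p = 0.00329, adjusted p = 0.566, limma). Its relative Flrt2 had 33.0 ± 4.73 and 27.3 ± 4.92, the secreted repellent Draxin 21.9 ± 1.72 and 23.6 ± 0.705, and Sema3b 0.902 ± 0.0556 and 1.496 ± 0.452. The log2 fold change of Sema3b was 0.48 on FPKM and -0.29 on scaled counts.

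Of 10 other receptors and co-receptors, all were tested and 1 was lower at that level. It was Lrrc4c, the membrane partner of netrin-G1, with 48.8, 47.6 and 54.7 FPKM in the controls and 35.8, 38.5 and 42.6 in the mutants. Its groups did not overlap (log2 fold change -0.37 ± 0.08 SE, unadjusted p = 0.00543, adjusted p = 0.686, limma). Its log2 fold change on scaled counts was -0.22. Nrcam, Dscam and Itgb1 had log2 fold changes of -0.07, 0.05 and 0.03. Of 34 intracellular mediators, 1 was higher and 1 lower at that level, or 5.88% against 5.65% of all genes. Ablim1, an actin-binding protein, had 20.3 ± 0.771 and 23.8 ± 0.479 FPKM (unadjusted p = 0.00283, adjusted p = 0.566, limma). Srgap2, a Slit-Robo GTPase activating protein, had 76.2 ± 3.76 and 67.3 ± 1.92 (unadjusted p = 0.0121, adjusted p = 0.763, limma). Its log2 fold change was -0.18 on FPKM and -0.06 on scaled counts, where the groups overlap. Ablim3, Dpysl2 and Mical1 had log2 fold changes of -0.10, -0.12 and 0.11 on FPKM, and of -0.09, -0.12 and 0.0017 on scaled counts. The median log2 fold changes of the 3 lists, in this order, were -0.02, -0.03 and -0.03.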

How the data were processed

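Total RNA of 6 libraries was sequenced, per the labels. The authors deposited 1 table with an FPKM and a count column for each library, per the file headers. TopHat, Cufflinks 2.1.1 and GRCm38.p4 stand in the submitters' processing notes, with no order given. The deposited count columns are not whole and were treated as a signal (scaled counts): 97.9% of values above 0.01 in each library lay within 0.1 of a whole multiple of 1 step, and dividing by that step gave the fragments. No count model was fitted. How multi-mapping reads and strand were treated is not given in the sources used here. Symbols came from GENCODE M21 (46483 of 47062 identifiers).

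limma 3.58.1 (R 4.3.3) with a variance trend was fitted to log2(FPKM + 0.5) over all 6 libraries and all 16666 genes with a mean of at least 0.5. P-values are two-sided, with Benjamini-Hochberg adjustment over all genes. Values in every library are given for members with an unadjusted p under 0.05, those whose groups do not overlap and the 6 most abundant; other members are given by mean or range, or by library where their spread is described. From each related list, genes with an unadjusted p under 0.05 and up to 3 others by p are named. The members and lists were chosen with earlier results of these data known. As alternatives, the pseudocount was set to 0.1 or 1, the filter removed or raised to a mean of 1, quantile or median-ratio scaling, a replicate block or robust limma used, scaled counts fitted (log2 of the value + 1, mean of at least 10) and each library left out. The steps were tested on simulated data. Ntn3, listed among the other ligands, was not analysed here.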

Additional observations from a re-analysis of the deposited data

How the results depend on the processing

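No member passed an adjusted p of 0.05 with limma as reported or in 14 of the 15 alternatives, whereas on scaled counts 1 did, Plxna4. The submitters' fold rule took 0 members in every alternative. At an unadjusted p under 0.05 there were 5 members as reported, 3 with the replicate block (Plxna2, Plxna4 and Plxnc1), and 2 to 6 when single libraries were dropped: 3 without control replicate 2 or mutant replicate 2, and 2 without control replicate 3 or mutant replicate 3. Plxna4 and Plxna2 were in each of these sets. Groups did not overlap for 6 members as reported and for 7 to 14 when single libraries were dropped: 14 without control replicate 1 and 10 without mutant replicate 2 or 3. In that smaller design more of all genes separate, from 17.6% without control replicate 3 to 24.9% without control replicate 2 (22.9% without control replicate 1). Without control replicate 2, 9 of the 40 members separated. The ligand median ran from -0.01 to 0.04 and the receptor median from 0.038 to 0.17 in those settings (0.038 without mutant replicate 3, 0.051 without mutant replicate 1 and 0.059 without control replicate 3). The receptor median was 0.038 with no filter and 0.039 on scaled counts, settings that add Plxnb3 and Robo3. The cause of the other shifts was not tested. Same-numbered libraries did not deviate together (correlations 0.0025, 0.037 and 0.043 over all genes tested), and not every library correlated best with its own number, so the numbers were not taken as pairs. Plxna4, Plxna2, Plxnc1, Unc5a, Plxnb1 and Sema4c kept their direction in all 15 alternatives. The edgeR and DESeq2 fits listed as alternatives were not run because the count columns are not whole. Robo3 and Plxnb3, on 14 to 28 and 15 to 31 fragments a library, were tested on scaled counts (unadjusted p = 0.302 and 0.153, limma) and with no filter, and passed in neither.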
